A study of Mus musculus with 12 samples.

Results

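The matrix metalloproteinases (MMPs), the ADAM and ADAMTS proteases and the tissue inhibitors of metalloproteinases (TIMPs) were followed in the left ventricle of adult mice that had lost Nkx2-5 from the trabecular myocardium before birth. The members are all genes on the array whose name begins with Mmp, Timp or Adam followed by a digit, or with Adamts. There are 83 of them among 34844 gene names on the array, covered by 124 probes. They comprise 23 MMPs, 4 TIMPs, 32 ADAMs, 19 ADAMTS proteases and 5 ADAMTS-like genes, and 38 of the 83 passed the filter on background and were tested.

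MMPs are zinc-dependent proteases that cut collagens, basement membrane and other matrix proteins, and most are made as inactive precursors. ADAMs are membrane proteins of which the active ones release the outer part of other membrane proteins, such as growth factors and Notch receptors, while ADAMTS proteases are secreted and process procollagens or cut proteoglycans such as versican. TIMPs bind the active site of these enzymes and block it, and in the heart the balance of proteases and inhibitors is known for its part in matrix turnover after injury and during remodelling.

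RNA from the left ventricular wall and apex, without the septum, was hybridized with 1 array for each of 12 mice aged 6 months. Mice with floxed Nkx2-5 alleles (Nkx2-5-ΔNeo fl/fl) were crossed with mice carrying a tamoxifen-inducible Cre recombinase in the Cx40 locus (Cx40-creERT2), so that recombination took place where Cx40 was active, mainly in trabecular cardiomyocytes. In the 4 TrbE10 mice tamoxifen had been given to the mothers at E10.5 and E11.5, while trabeculae form, and in the 4 TrbE14 mice at E13.5 and E14.5, while they compact. Control, with 4 mice, is called not injected in the sample labels. In the methods the control littermates are floxed mice without Cre, so that Cre and tamoxifen may both differ between the mutants and Control. The Cre sits in the Cx40 gene (Gja5), and only part of the cells of the ventricle lost Nkx2-5. Every level below is the log2 of the normalized signal of the gene's brightest probe, and every change is a difference of these log2 levels. Levels of different genes are not compared, because probes differ in brightness at the same amount of RNA.

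The targeted gene Nkx2-5 lay between 11.89 and 12.23 in Control, between 11.21 and 11.67 in TrbE10 and between 11.12 and 11.63 in TrbE14 arrays, without overlap between mutants and Control. All Control and TrbE14 arrays were on slide 1 and all TrbE10 arrays on slide 2, so any effect of the slide in TrbE10 cannot be told apart from the mutation, while TrbE14 and Control share a slide. Hearts with Y-linked signal, called male here, numbered 1 of 4 in Control, 2 of 4 in TrbE10 and 3 of 4 in TrbE14. Genes with 1 or more probes at an adjusted p under 0.05 (limma, Benjamini-Hochberg over all filtered probes) are those called here. Nkx2-5 itself was called in TrbE10 (change -0.66, adjusted p = 0.0459 by limma) and not in TrbE14 hearts (-0.59, adjusted p = 0.106). Gja5 changed by -0.64 and -0.47, with arrays that overlapped Control, and was not called. With 4 arrays against 4, an exact two-sided permutation test of a single gene cannot give a p below 0.0286. Precision is limited by the small number of arrays.

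The members were at very different distances from background. Of the 83 genes, 32 were well above background on all 12 arrays by at least 1 probe and another 32 were so on no array. All 4 TIMPs passed, against 7 of 23 MMPs, 13 of 32 ADAMs, 10 of 19 ADAMTS genes and 4 of 5 ADAMTS-like genes. The gelatinase Mmp9, which neutrophils and macrophages are known to make, was well above background on 1 of the 12 arrays, a TrbE14 array, and was not tested. Adam12, Adamts8 and Adamtsl1 passed through 1 group each.

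Of the 38 measured members, Adam23, Adamts2 and Timp1 were called in TrbE10 hearts, all of them higher. This is 7.89% of the measured members, beside 2.15% of all 18021 measured genes called in that comparison, 1.36% higher. In TrbE14 hearts Adam23 was called, also higher, or 2.63% of the measured members beside 0.76% of all genes, 0.583% being called higher. No member was called lower in either mutant, although the largest negative change, that of Timp4, was -1.999. At an unadjusted p under 0.05 there were 7 members in TrbE10 and 9 in TrbE14 hearts, where 16.8% and 13.9% of all genes were at that level. The arrays of mutant and Control did not overlap for 6 members in TrbE10 (15.8%, beside 10.6% of all genes) and for 5 in TrbE14 (13.2%, beside 10.1%). In TrbE10 hearts 4 of these were higher, beside 4.94% of all genes, and 2 lower, beside 5.63%. In TrbE14 hearts 4 were higher, beside 4.65%, and 1 lower, beside 5.43%. The median log2 change of the 38 members was 0.12 in each mutant, beside -0.02 and -0.03 over all genes. It was above 0 for 24 members (63.2%) in TrbE10 and 26 (68.4%) in TrbE14 hearts, beside 45.2% and 44.1% of all genes. The comparisons share the same Control arrays, and the changes had the same sign in both for 23 positive and 11 negative members.

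**Figure D1:**
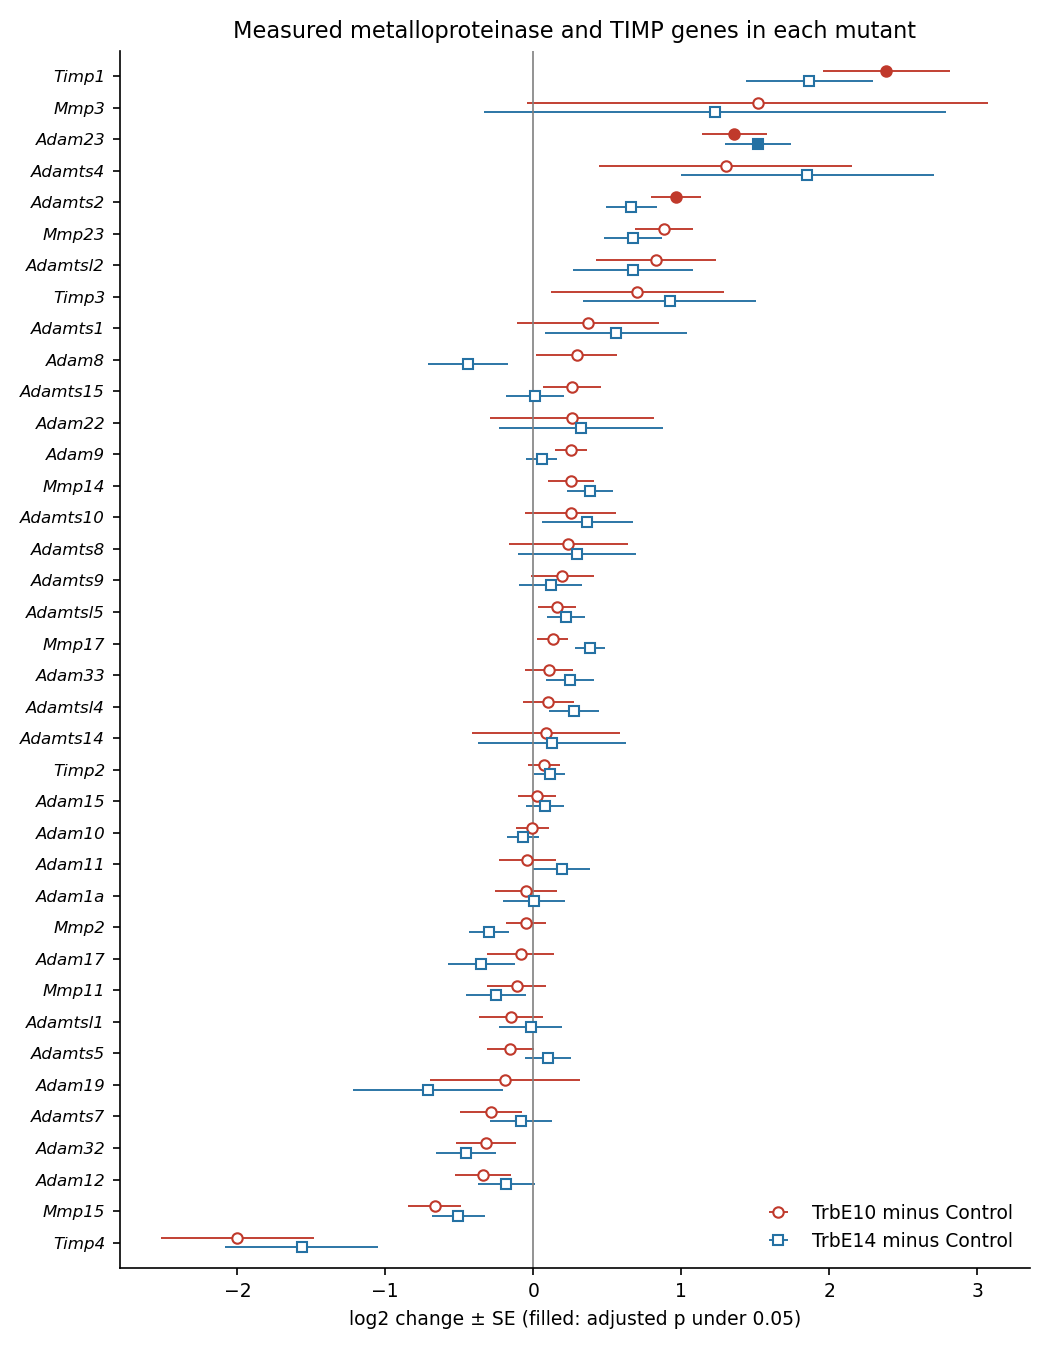
Log2 change of each of the 38 measured members (rows) in TrbE10 (red circles) and TrbE14 (blue squares) hearts against Control, with the standard error of the fit as a bar. Filled symbols have an adjusted p under 0.05. Timp1 at the top and Timp4 at the bottom of the plot are the ends of the range, and 26 members lie within 0.5 of 0 in both mutants.

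The TIMPs spanned the whole range of the members. Timp1 was higher and Timp4 lower, while Timp2 stayed near its Control level and Timp3 was spread widely inside each group. In the RefSeq annotation of GRCm38.p6, Timp1, Timp3 and Timp4 each overlap a synapsin gene, Syn1, Syn3 and Syn2. The 250 bases before the annotated start of the genes that mark the 2 ends of the range, and of 2 further members described below, are shown here so that their base composition and motifs can be seen beside the values. Capitals mark an AP-1 site (TGANTCA), and lower case is all other sequence.

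Timp1 (GRCm38.p6 chrX:20869916-20870165, plus strand): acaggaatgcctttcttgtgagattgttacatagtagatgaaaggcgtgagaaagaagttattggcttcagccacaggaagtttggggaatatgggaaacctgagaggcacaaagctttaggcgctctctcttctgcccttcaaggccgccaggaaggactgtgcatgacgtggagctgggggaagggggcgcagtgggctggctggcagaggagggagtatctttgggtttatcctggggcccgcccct
Timp4 (GRCm38.p6 chr6:115252206-115252455, minus strand): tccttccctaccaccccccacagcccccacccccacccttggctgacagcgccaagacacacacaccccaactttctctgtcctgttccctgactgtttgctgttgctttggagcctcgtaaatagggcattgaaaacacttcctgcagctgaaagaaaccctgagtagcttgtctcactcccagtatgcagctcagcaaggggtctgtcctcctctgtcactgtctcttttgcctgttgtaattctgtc
Adamts2 (GRCm38.p6 chr11:50601835-50602084, plus strand): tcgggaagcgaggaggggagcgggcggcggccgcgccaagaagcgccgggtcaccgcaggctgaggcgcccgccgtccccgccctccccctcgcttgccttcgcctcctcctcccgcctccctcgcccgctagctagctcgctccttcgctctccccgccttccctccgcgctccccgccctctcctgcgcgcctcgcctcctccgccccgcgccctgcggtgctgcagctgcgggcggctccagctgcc
Mmp3 (GRCm38.p6 chr9:7445572-7445821, plus strand): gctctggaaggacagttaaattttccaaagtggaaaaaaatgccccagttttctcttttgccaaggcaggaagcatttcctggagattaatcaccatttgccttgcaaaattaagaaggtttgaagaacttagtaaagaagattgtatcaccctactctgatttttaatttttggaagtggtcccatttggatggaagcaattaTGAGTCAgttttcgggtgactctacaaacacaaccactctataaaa

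Both strands were searched for the letters of the Nkx2-5 core element, TNAAGTG, and of the AP-1 site, TGANTCA, which reads the same on both strands. Promoters were listed for 24 of the 38 measured members, 27 in all. The Nkx2-5 letters occurred in 3 of the 27 (11.1%), beside 10.1% of 32851 promoter windows of the same length, and those of AP-1 in 2 of 27 (7.41%), beside 6.75%. Over all members with a listed promoter, measured or not, these letters occurred in 8 (14%) and 11 (19.3%) of 57. Timp1, Timp4 and Adamts2 held neither in this window, and their G and C content was 54.4%, 53.6% and 78%. The Mmp3 window, with 37.6% G and C, held the AP-1 letters from 46 bases before the annotated start. A match is a description of letters and not a binding site.

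Timp1, a secreted inhibitor of many MMPs that is known to be induced in injured and fibrotic tissue, has its probe at chrX:20451802-20451861 of mm9. Its level was 7.41, 7.91, 7.40 and 8.44 in the 4 Control arrays. It was 10.59, 9.27, 10.45 and 10.40 in TrbE10 and 10.17, 8.41, 10.24 and 9.80 in TrbE14 arrays. All TrbE10 arrays were above all Control arrays, and replicate 2 of TrbE14 was level with the highest Control array. Timp1 rose by 2.39 in TrbE10 hearts, or 5.23-fold (SE 0.43, n = 4 per group, adjusted p = 0.0208 by limma). In TrbE14 hearts the change was 1.87, or 3.65-fold (SE 0.43, adjusted p = 0.0897), and it did not pass the test. Without TrbE14 replicate 2 the TrbE14 change was 2.28, with an adjusted p of 0.0239. SAM, the test named in the study's methods, called Timp1 in both mutants when run here. The paper also lists Timp1 as raised in both mutants. It reports that RT-PCR of selected genes, Timp1 included, on the same cDNA matched its array results.

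The TrbE10 call of Timp1 depended on the arrays used, with changes from 2.25 to 2.69 and adjusted p from 0.00669 to 0.0718 over the 12 arrays left out in turn. It was lost without Control replicate 1 (adjusted p = 0.0606), Control replicate 3 (0.0606) and TrbE10 replicates 1 (0.0628), 3 (0.0718) and 4 (0.0588), and without the filter on background (0.0649). Marker lists of several cell types had positive median changes in the mutants, as Timp1 did, but did not follow Timp1 on every array. Of 10 measured macrophage markers, 5 were called higher in TrbE10 hearts, and their summed linear signal was 18350 to 20400 in Control, 25720 to 30730 in TrbE10 and 23840 to 26780 in TrbE14 arrays. Of 8 fibroblast markers 1 was called higher in each mutant, with sums of 7752 to 11820, 9861 to 14740 and 11110 to 13960. The 4 atrial markers had median changes of 0.99 and 0.87, with 1 called higher in TrbE10 hearts, but they did not move together. Their changes ran from -0.12 to 3.80 in TrbE10 hearts, with 2 of 4 above 0, and from -0.00056 to 3.33 in TrbE14 hearts, with 3 above 0. Their sums were 11950 to 68390 in Control, 41320 to 159300 in TrbE10 and 77230 to 95480 in TrbE14 arrays. Replicate 2 of TrbE10, with the lowest TrbE10 level of Timp1, also had the lowest TrbE10 macrophage (25720), fibroblast (9861) and atrial (41320) sums. Some arrays of the other groups did not follow Timp1. TrbE14 replicate 2, with Timp1 at 8.41, had a macrophage sum of 25860, above all Control arrays. Control replicate 3, with the lowest Timp1 level, had the highest Control atrial sum, 68390. The 7 mural markers had median changes of 0.02 and 0.63, with 5 and 7 above 0. Of 3 mesothelial markers 2 were measured, with median changes of 1.09 and 0.91, none called (0 genes), and sums of 391.4 to 876.1, 718 to 1912 and 680.2 to 1498. The lowest TrbE10 mesothelial sum, 718, was also that of replicate 2, and the lowest TrbE10 mural sum, 29600, that of replicate 4. The part of these lists in the Timp1 result was not tested. In bulk tissue, a change in the number of cells of a type and a change in RNA per cell cannot be told apart.

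Timp4, the member of the family best known from heart muscle, has its probe at chr6:115196120-115196179 of mm9. Its level was 12.09, 10.81, 10.69 and 11.25 in Control arrays. It was 8.33, 9.15, 9.02 and 10.34 in TrbE10 and 8.76, 9.05, 9.97 and 10.81 in TrbE14 arrays. All TrbE10 arrays were below all Control arrays, and TrbE14 replicate 4 reached into the Control range. The change was -1.999 in TrbE10 hearts, a level 0.25 times that of Control (SE 0.52, n = 4 per group, adjusted p = 0.0820 by limma), and -1.56 in TrbE14 hearts, 0.338 times (SE 0.52, adjusted p = 0.241). Neither passed the test over all genes, and their 95% intervals ran from -3.13 to -0.87 and from -2.70 to -0.43.

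Timp4 levels are given by sex as a description, since groups held as few as 1 heart of a sex. No test between the sexes was run, and sex entered only the alternative fits below. The male Control heart had 12.09 and the 3 female ones 10.69 to 11.25. Male TrbE10 hearts had 9.15 and 10.34 against 8.33 and 9.02 in females, and male TrbE14 hearts had 9.05 to 10.81 against 8.76 in the female one. Within each sex all mutant hearts were below all Control hearts, although only 1 Control heart was male. With sex as a covariate, an alternative fit, the Timp4 change was -2.28 (adjusted p = 0.0148) for TrbE10 and -2.13 (adjusted p = 0.0474) for TrbE14, both past the threshold. A heart counted as male here when at least 2 of 4 Y-linked genes were well above background. A rule of 3 of 4 was run first, gave -1.999 (adjusted p = 0.107) and -1.85 (adjusted p = 0.349), and was replaced after its result had been seen. Females express Xist, so a male call should go with no Xist signal above background and a female call with such a signal. This held on 8 of 12 arrays for the rule of 3 and on 12 of 12 for the rule of 2.

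Adipocyte markers were low on some of the arrays with low Timp4 and not on others. The summed signal of 6 of the 7 listed markers was 1459 to 3263 in Control, 132.5 to 2021 in TrbE10 and 997 to 2407 in TrbE14 arrays, and Lep was not measured. Their median log2 change was -1.42 in TrbE10 and -0.41 in TrbE14 hearts, with none called (0 genes). The lowest sum, 132.5, belonged to TrbE10 replicate 2, where Timp4 was 9.15, and the lowest Timp4 level, 8.33, to TrbE10 replicate 1, where the sum was 1490. In TrbE14 hearts the highest sum, 2407, was that of replicate 1, where Timp4 was lowest, at 8.76. Replicate 4 had the highest TrbE14 level of Timp4, 10.81, with a sum of 1235. The part of these markers in the Timp4 result was not tested. Over the 12 arrays left out in turn, the TrbE10 change of Timp4 lay between -2.37 and -1.71. The 8 cardiomyocyte markers had median changes of -0.02 and 0.02.

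**Figure D2:**
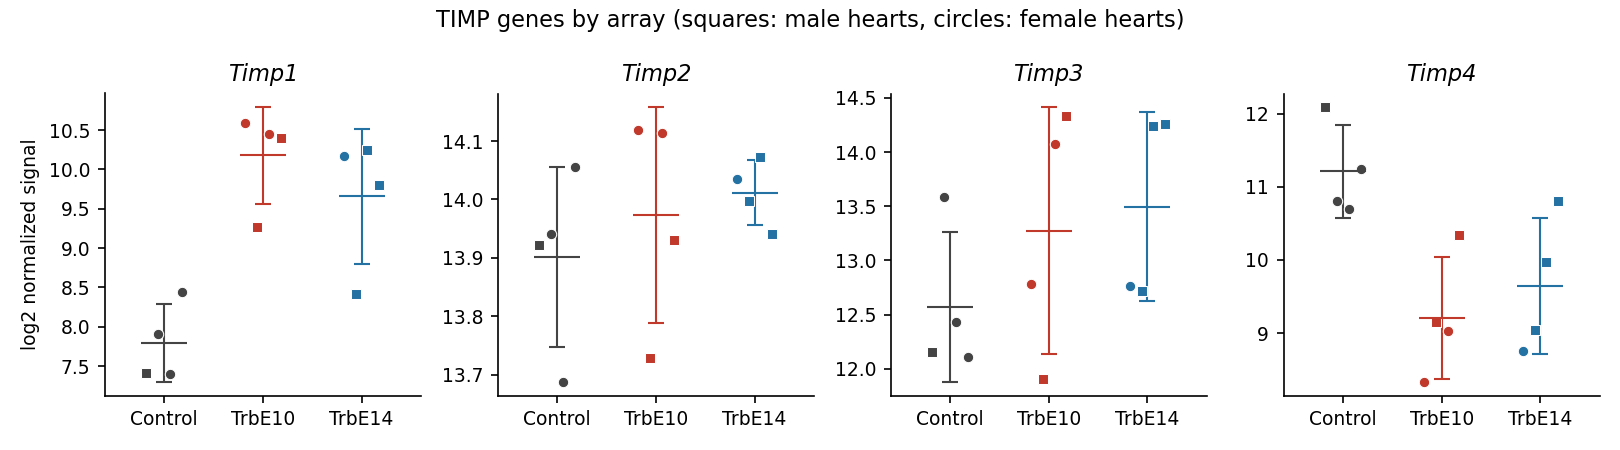
Log2 normalized signal of the 4 TIMP genes on each array by group, with male hearts as squares and female hearts as circles; horizontal bars give the mean and whiskers the SD of 4 arrays. Timp1 is above Control on all 4 TrbE10 arrays and Timp4 below, whereas Timp2 spans a narrow range and Timp3 a wide one within each group.

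Timp2, which besides inhibiting MMPs takes part in the activation of the Mmp2 precursor by Mmp14, was 13.90 ± 0.15 in Control, 13.97 ± 0.18 in TrbE10 and 14.01 ± 0.06 in TrbE14 hearts (mean ± SD, n = 4). Its changes of 0.07 and 0.11 (SE 0.11 each, adjusted p = 0.786 and 0.661 by limma) had 95% intervals from -0.16 to 0.31 and from -0.13 to 0.35. Its second probe gave 0.24 and 0.18. Timp3, which is held in the matrix and also inhibits ADAM and ADAMTS proteases, was 12.16, 13.59, 12.44 and 12.11 in Control arrays. It was 12.79, 11.90, 14.08 and 14.34 in TrbE10 and 12.76, 12.72, 14.24 and 14.26 in TrbE14 arrays. Control had 1 array above 13 and each mutant 2, the groups overlapped, and the changes of 0.70 and 0.92 (SE 0.59 each, adjusted p = 0.594 and 0.502) were within the spread between replicates.

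Adam23 was the member called in both mutants. It encodes an ADAM without protease activity, best known from neurons, where it takes part in cell adhesion and binds secreted LGI proteins. Its probe (mm9 chr1:63639339-63639398) gave 5.79, 5.60, 5.21 and 5.30 in Control arrays. It gave 6.42, 6.73, 6.80 and 7.39 in TrbE10 and 6.94, 6.77, 7.46 and 6.81 in TrbE14 arrays. No mutant array overlapped with Control. Adam23 rose by 1.36 in TrbE10 hearts (2.57-fold, SE 0.22, adjusted p = 0.0129 by limma) and by 1.52 in TrbE14 hearts (2.86-fold, SE 0.22, adjusted p = 0.0103), higher in 4 of 4 hearts each. It was called without each of the 12 arrays in turn in both mutants, with an adjusted p of at most 0.0467 and 0.0408. With normexp background correction its changes were smaller, at 0.70 and 0.85, and still called. With the replicate number as a block the TrbE14 call was lost (adjusted p = 0.0505). The 3 other probes for Adam23 were well above background on no array (0 of 12) and were not tested, so the result rests on 1 probe. Of the other catalytically inactive ADAMs measured, Adam11 changed by -0.04 and 0.19 and Adam22 by 0.26 and 0.32, without passing the test.

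Adamts2 encodes the main procollagen N-proteinase, which trims the amino-terminal propeptide from fibrillar procollagens. Its probe (mm9 chr11:50617472-50617531) gave 10.55, 10.88, 10.504 and 10.73 in Control arrays. It gave 11.56, 11.21, 12.07 and 11.69 in TrbE10 and 11.45, 11.23, 11.54 and 11.11 in TrbE14 arrays, above all Control arrays in both mutants. Adamts2 rose by 0.96 in TrbE10 hearts (1.95-fold, SE 0.17, adjusted p = 0.0202 by limma). The change of 0.66 in TrbE14 hearts (1.58-fold, SE 0.17, adjusted p = 0.131) did not pass the test. The TrbE10 call was lost without Control replicate 1 (adjusted p = 0.0587), 3 (0.0599) or 4 (0.0538) or without TrbE10 replicate 4 (0.0562). It was also lost without a filter (0.0552), with only both compared groups fitted (0.0545) and with the replicate number as a block (0.0506). The fibroblast sums given above were highest, at 14740, on the array with the highest Adamts2 level, TrbE10 replicate 3. TrbE10 replicate 2 had the lowest TrbE10 sum, 9861, and the lowest TrbE10 level of Adamts2, 11.21. In TrbE14 hearts the highest sum, 13960, was that of replicate 1 and the highest Adamts2 level that of replicate 3. The part of the fibroblast markers in the Adamts2 result was not tested. Adamts14, which has the same activity, changed by 0.09 and 0.13 (SE 0.50 each).

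**Figure D3:**
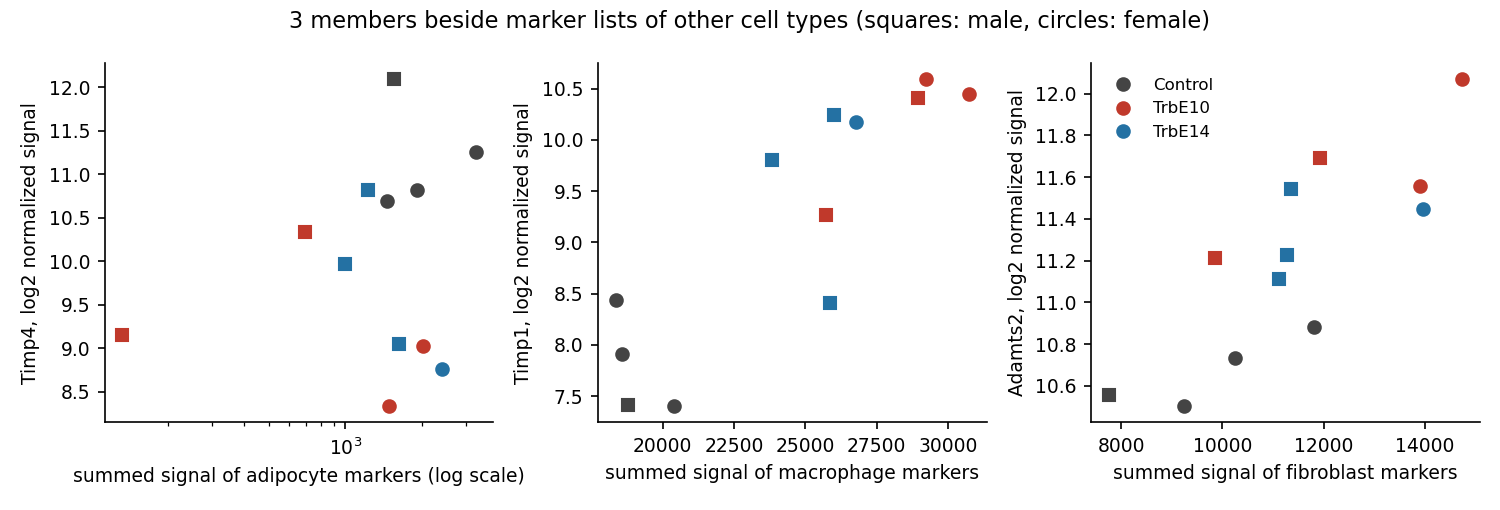
Levels of Timp4, Timp1 and Adamts2 on each array (vertical axes, log2 normalized signal) against the summed linear signal of adipocyte, macrophage and fibroblast markers, respectively (horizontal axes, the first on a log scale), with male hearts as squares and female hearts as circles. The macrophage sums of all mutant arrays exceed those of Control, which end at 20400, and TrbE10 replicate 2 has the lowest adipocyte sum, 132.5.

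Among the MMPs, membrane-bound members stood at both sides of Control. Mmp23, which is anchored in the membrane and released by cleavage, was 8.91, 9.17, 8.87 and 9.08 in Control arrays. It was 10.46, 9.48, 10.02 and 9.60 in TrbE10 and 9.87, 9.78, 9.70 and 9.36 in TrbE14 arrays, without overlap with Control. Its change of 0.89 in TrbE10 hearts (1.85-fold, SE 0.20) had an adjusted p of 0.0502 by limma, just over the threshold, and that of 0.68 in TrbE14 hearts (SE 0.20) one of 0.186. Over 10 other ways of fitting the TrbE10 comparison Mmp23 was called in 6, with changes from 0.80 to 0.98.

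Mmp15, a membrane-type MMP, was 9.21, 9.13, 9.29 and 9.26 in Control arrays. It was 8.94, 8.88, 8.21 and 8.20 in TrbE10 and 8.61, 9.04, 8.58 and 8.63 in TrbE14 arrays, below all Control arrays in both mutants. The changes of -0.66 (SE 0.18, adjusted p = 0.0937) and -0.51 (SE 0.18, adjusted p = 0.262) did not pass the test over all genes. Mmp17, a membrane-type MMP held by a lipid anchor, was 7.13 to 7.38 in Control and 7.42 to 7.81 in TrbE14 arrays, which did not overlap (change 0.38, SE 0.10, adjusted p = 0.15). In TrbE10 arrays it was 7.34 to 7.58, a change of 0.13 (SE 0.10, adjusted p = 0.576). Mmp14, the main membrane-bound collagenase and activator of Mmp2, changed by 0.25 and 0.39 (SE 0.16 each, adjusted p = 0.454 and 0.324).

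Mmp2, the gelatinase that fibroblasts are known to make constitutively, was not called in either mutant. It was 9.71 to 10.00 in Control, 9.63 to 10.11 in TrbE10 and 9.38 to 9.78 in TrbE14 arrays, all groups overlapping. Its changes were -0.05 (SE 0.14, adjusted p = 0.894) and -0.30 (SE 0.14, adjusted p = 0.370), with 95% intervals from -0.35 to 0.25 and from -0.60 to 0.0014. Mmp11, a secreted MMP of connective tissue, changed by -0.11 and -0.25 (SE 0.20 each). Of 16 secreted MMPs on the array 3 were measured, Mmp2, Mmp3 and Mmp11, and none was called (0 genes by limma).

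**Figure D4:**
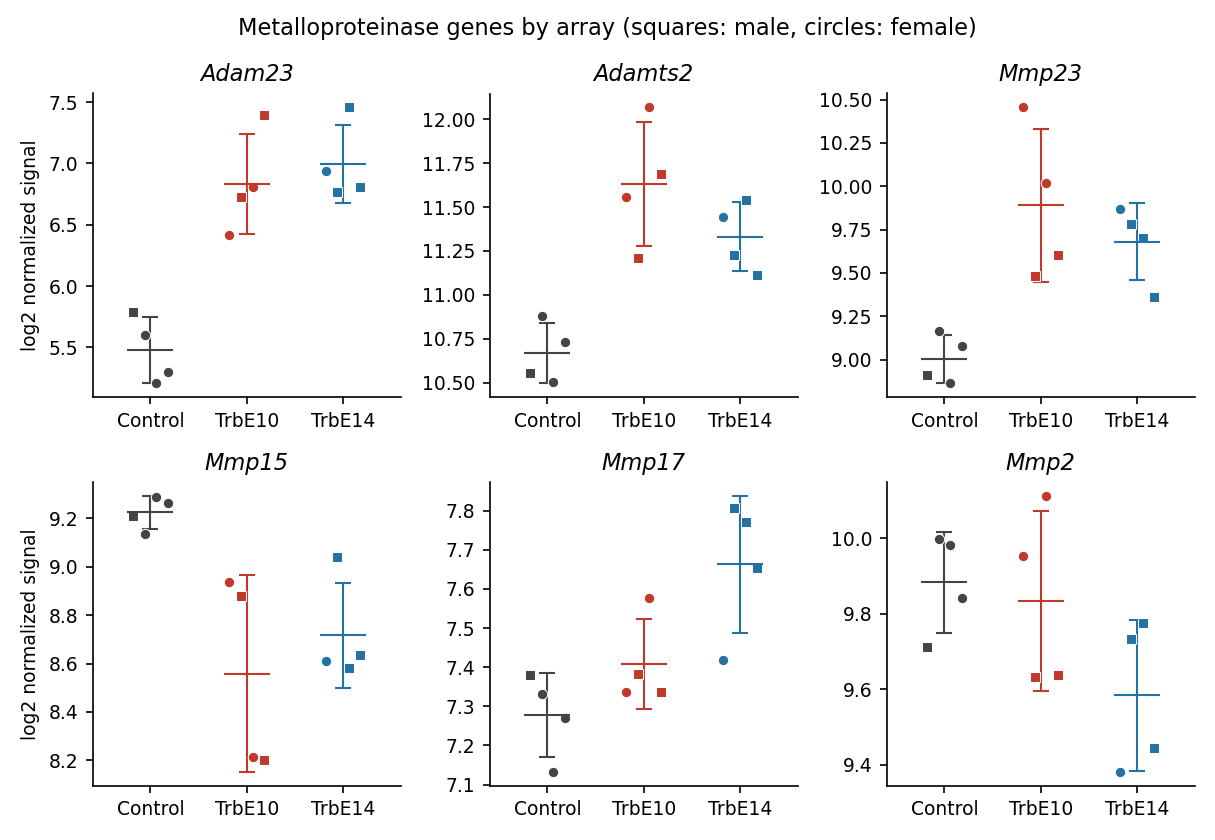
Log2 normalized signal of Adam23, Adamts2, Mmp23, Mmp15, Mmp17 and Mmp2 on each array by group, with male hearts as squares and female hearts as circles; horizontal bars give the mean and whiskers the SD of 4 arrays. Adam23, Adamts2 and Mmp23 lie above and Mmp15 below all Control arrays in both mutants, while Mmp2 overlaps in all 3 groups.

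Neither of the main shedding enzymes, Adam10 and Adam17, was called. Adam10, which releases the outer part of Notch receptors and other membrane proteins, was 9.68 ± 0.11 in Control, 9.67 ± 0.13 in TrbE10 and 9.61 ± 0.20 in TrbE14 hearts (mean ± SD, n = 4). Its changes were -0.0066 and -0.07 (SE 0.11 each), with 95% intervals from -0.25 to 0.24 and from -0.31 to 0.18. Adam17, which releases tumour necrosis factor and ligands of the EGF receptor, had changes of -0.09 and -0.35 (SE 0.23 each, adjusted p = 0.887 and 0.511 by limma), with wider 95% intervals from -0.59 to 0.41 and from -0.85 to 0.15. Of 8 measured somatic ADAMs listed as active none was called (0 genes), and 1 had an unadjusted p under 0.05 in TrbE10 hearts, Adam9, with a change of 0.26 and an adjusted p of 0.265.

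Of the 6 measured ADAMTS proteases that cut proteoglycans such as versican and aggrecan, none was called in either mutant (0 genes by limma, also 0 at an unadjusted p under 0.05). Adamts1 changed by 0.37 and 0.56 (SE 0.48 each) and Adamts5 by -0.16 and 0.10 (SE 0.16 each). The second probe for Adamts5 gave -0.13 and -0.35, so its probes differ in sign in TrbE14 hearts. Adamts4, named after its values were seen, was 6.73, 2.30, 4.91 and 5.96 in Control arrays. It was 5.69, 8.15, 5.66 and 5.62 in TrbE10 and 7.26, 6.80, 6.89 and 6.36 in TrbE14 arrays, and its changes of 1.30 and 1.85 (SE 0.86 each, adjusted p = 0.485 and 0.376) were within this spread. Adamtsl2, which lacks a protease domain and binds fibrillin-rich microfibrils, changed by 0.83 and 0.67 (SE 0.40 each, adjusted p = 0.338 and 0.481).

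The members varied more between hearts of the same group than genes in general, in a comparison that was not matched for signal level. The median pooled SD within groups was 0.31 for the 38 members, beside 0.21 over all 18021 measured genes, and it was above 0.5 for 11 members (28.9%), beside 11% of all genes. The widest was Mmp3 (stromelysin-1, which cuts proteoglycans and activates other MMPs), chosen for mention, as the others of this paragraph, after the values were seen. Its level was 4.59, 9.09, 7.23 and 3.50 in Control, 6.22, 4.47, 10.94 and 8.84 in TrbE10 and 6.23, 5.24, 9.03 and 8.82 in TrbE14 arrays. Mmp3 was well above background on 9 of the 12 arrays, so its lowest levels are only bounds. Adamts4 and Adamts8, also among the 11 members above 0.5, were well above background on 11 and 8 of the 12 arrays.

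The 5 arrays with the highest Mmp3 levels were also the 5 with the highest Timp3 levels, and they came from all 3 groups. They were Control replicate 2, TrbE10 replicates 3 and 4 and TrbE14 replicates 3 and 4. For Mmp3 the lowest of these 5 was 8.82 and the next array 7.23. For Timp3 the corresponding values were 13.59 and 12.79. Adam22 had all 5 of these arrays among its 6 highest. Adam19, an active ADAM known for its role in the developing heart, had 4 of the 5 among its 5 lowest arrays, with 8.31 and 8.60 in TrbE14 replicates 3 and 4 against 10.07 and 10.80 in replicates 1 and 2. The groups overlapped for each of these 4 genes.

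**Figure D5:**
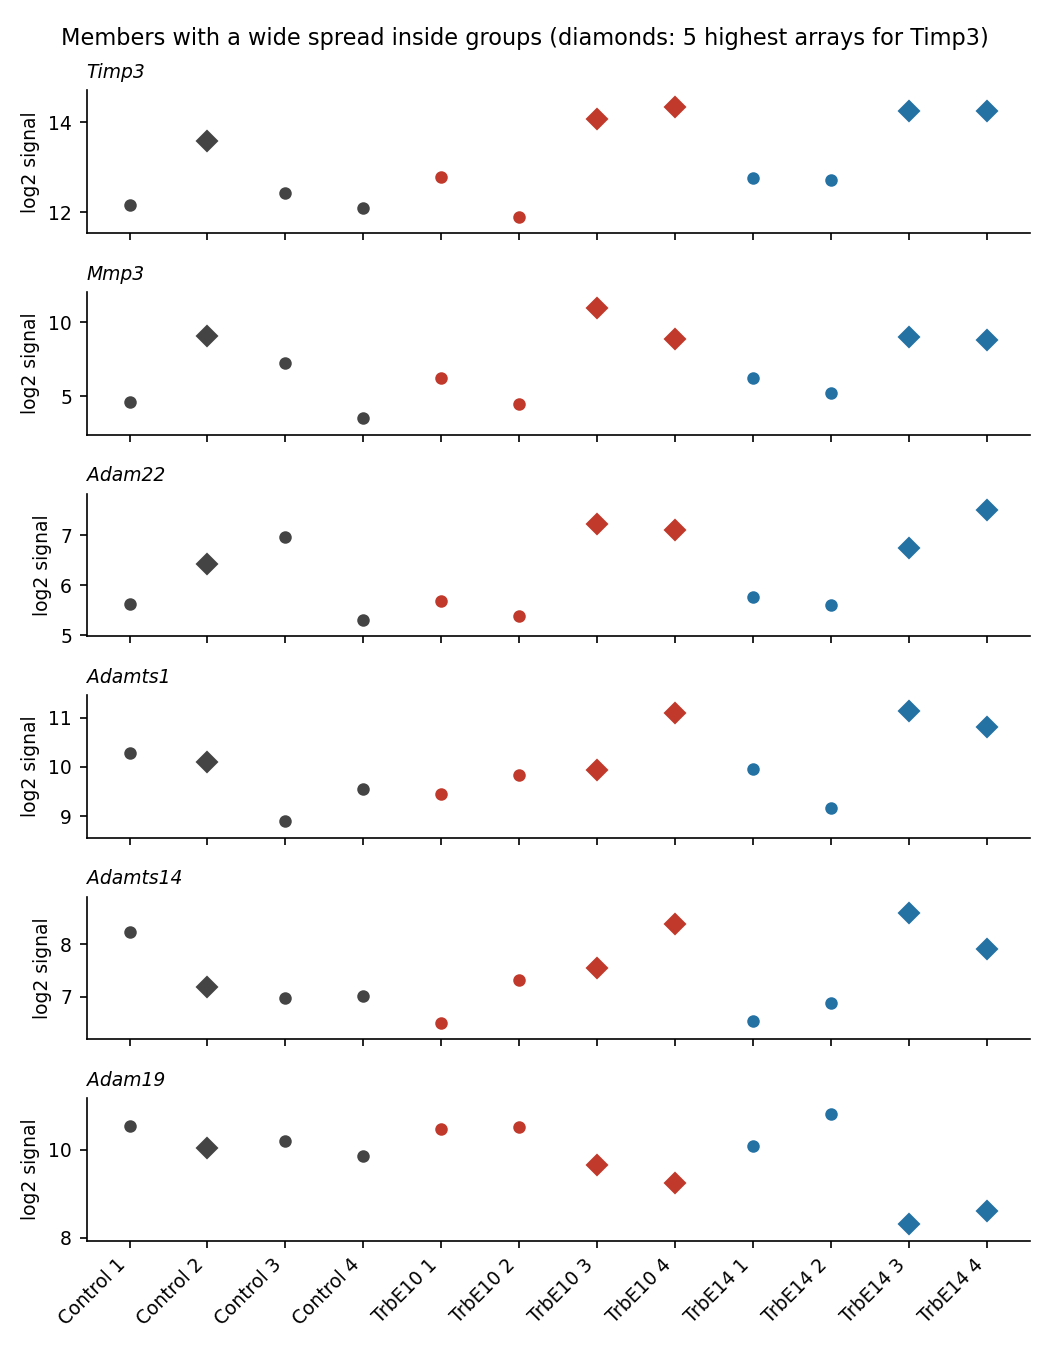
Log2 normalized signal of 6 members with a wide spread inside groups, 1 panel each, on the 12 arrays in the order Control, TrbE10 and TrbE14; diamonds mark the 5 arrays with the highest Timp3 levels. The same 5 arrays are highest for Mmp3, and 4 of them are among the 5 lowest for Adam19.

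Between the mutants no member was called (0 genes by limma, beside 0% of all genes), and the lowest adjusted p among the members was 0.789. At an unadjusted p under 0.05 there were 2 members, Adam8 and Mmp17, beside 5.96% of all genes. Arrays of the mutants did not overlap for 0 members, beside 3.37% of all genes (1.64% higher and 1.73% lower in TrbE10), and 15 members were higher in TrbE10, beside 51.2%. Adam8, made by leukocytes, was 0.73 higher in TrbE10 than in TrbE14 hearts (SE 0.27) and Mmp17 differed by -0.25 (SE 0.10). The differences between the mutants, TrbE10 minus TrbE14, had 95% intervals from -0.42 to 1.46 for Timp1, from -1.57 to 0.70 for Timp4, from -0.64 to 0.33 for Adam23 and from -0.08 to 0.68 for Adamts2.

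Genes that work with the members, taken from a list of 43, were measured for 38. They comprise 18 regulators, such as convertases and tetraspanins, and 20 substrates. In TrbE10 hearts 4 were called, all higher, and in TrbE14 hearts also 4, all higher, beside the 2.15% and 0.76% of all genes given above. The substrates had median changes of 0.38 and 0.43, with 16 and 17 of 20 above 0, beside 45.2% and 44.1% of all genes. One of them, Acan, passed the filter through TrbE14 only, and its TrbE14 change of 0.56 is counted among the 17. The regulators had medians of 0.06 and 0.15. Fibroblast markers had medians of 0.43 and 0.44, near those of the substrates, and their part was not tested.

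Pcsk5, a convertase that activates precursor proteins, passed the test in both mutants. It was 6.00 to 6.10 in Control, 6.47 to 6.85 in TrbE10 and 6.89 to 7.04 in TrbE14 arrays, without overlap. It rose by 0.59 (SE 0.10, adjusted p = 0.0155 by limma) and 0.89 (SE 0.10, adjusted p = 0.00214). The TrbE10 call was lost with normexp background correction (change 0.31, adjusted p = 0.0521), with only both compared groups fitted (0.0569) and without TrbE10 replicate 3 (0.0502), while the TrbE14 call was kept in all 12 fits with an array left out and in 10 of 10 other alternatives. Decorin (Dcn), a small proteoglycan on collagen fibrils, was the other gene called in both, with rises of 0.39 (adjusted p = 0.0376) and 0.50 (adjusted p = 0.0190). These calls depended on the arrays and settings. In TrbE10 hearts Dcn was called in 3 of 12 fits with an array left out and in 5 of 10 other alternatives, with an adjusted p of up to 0.107, and was lost without any 1 Control array, without TrbE10 replicate 1, 3 or 4 and without TrbE14 replicate 2 or 4. In TrbE14 hearts it was called in 7 of 12 and 7 of 10, with an adjusted p of up to 0.111, and was lost without Control replicate 2, 3 or 4 or TrbE14 replicate 1 or 2. Nrg1, a growth factor for cardiomyocytes that ADAMs release from the membrane, rose by 1.43 in TrbE10 hearts (SE 0.24, adjusted p = 0.0147), and its change in TrbE14 hearts was 0.79 (adjusted p = 0.202). The Nrg1 change in TrbE10 hearts was 0.75 with normexp, still called, and the call was lost without TrbE10 replicate 3 (adjusted p = 0.0540).

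Cx3cl1, a chemokine shed by Adam10 and Adam17, rose by 0.57 in TrbE10 hearts (adjusted p = 0.0213), with 0.44 (adjusted p = 0.0959) in TrbE14 hearts. Its call was lost without Control replicate 1, 3 or 4 or TrbE10 replicate 3 (adjusted p of up to 0.0633), with both compared groups alone (0.0756) and with the block (0.0632). Fibrillin-1 (Fbn1), the backbone of microfibrils, and Col4a1, a collagen of basement membranes, rose in TrbE14 hearts by 0.67 (adjusted p = 0.0142) and 0.53 (adjusted p = 0.0438), with 0.29 and 0.34 in TrbE10 hearts. The Fbn1 call was lost without Control replicate 1, 3 or 4 (adjusted p of up to 0.0543) and with the stricter rule for sex (0.0979). Col4a1 was called in 1 of 12 fits with an array left out, that without TrbE10 replicate 3, and in 4 of 10 other alternatives, with an adjusted p of up to 0.127 and 0.154. Biglycan (Bgn) did not pass the test, with changes of 0.88 and 0.74. Notch1, a receptor cut by Adam10, was 8.82 to 9.85 in TrbE10 and 6.02 to 8.45 in Control arrays, a change of 1.75 with an SE of 0.68 (adjusted p = 0.240), and its TrbE14 change was 0.35. Tspan33, a tetraspanin that accompanies Adam10, changed by -0.72 and -0.54 (adjusted p = 0.0784 and 0.255).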

How the data were processed

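RNA of 12 left ventricles was hybridized to 1-colour Agilent mouse arrays with probe annotation on mm9. The authors scanned the arrays and deposited the processed signal intensity of each spot, background-corrected by Agilent Feature Extraction 10.5. Their second table, 22114 spots, holds log2 values that the authors had quantile-normalized, and was used as an alternative. Here control spots and outlier spots were removed, spots of a probe averaged and log2 processed signals quantile-normalized. Probes well above background on at least 75% (3 of 4) of the arrays of any group were kept, 24593 of 55681. Read depth does not apply to arrays.

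Groups were compared with limma 3.58.1 in R 4.3.3, with 1 mean per group over all 12 arrays and Benjamini-Hochberg adjustment over all kept probes in each comparison. Nothing in the labels states how replicate numbers relate across groups. The p-values set a difference of group means against the spread between hearts within groups. The code was tested on simulated data. The members and lists were chosen with earlier results of these data known. Named members were the 4 TIMPs, Mmp2, members called in any comparison, up to 8 per mutant with the largest change without overlap with Control, and Mmp9, Mmp14, Adam10, Adam17, Adamts1 and Adamts5. Of the 43 companion genes, named ones were those called and the 3 per mutant with the largest change without overlap. Other genes are described as examples of their list or for their spread, chosen after their values were seen. Promoter sequences and gene overlaps came from RefSeq on GRCm38.p6, and positions on the 2 builds were not converted.

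The alternatives tried were a filter on 9 of 12 arrays, no filter, normexp (offset 50), the 75th percentile as the scale, the authors' values, fitting only the 2 groups compared, a block for the replicate number, sex as a covariate, averaged probes, SAM at a false discovery rate of 5% and each array left out in turn. Sex was called from Y-linked genes by 2 rules. The stricter one, 3 of 4 genes, was run first. The rule of 2 of 4 genes, used for "sex as a covariate" here, was chosen after that result had been seen, and the stricter one was then kept as an added alternative.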

Additional observations from a re-analysis of the deposited data

Results flagged for a closer look

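In 4 of 45 groups of 4 arrays, covering 15 named members, 1 array lay so far from the rest that its gap to the nearest, divided by the range of the group, exceeded Dixon's critical value for 4 samples. Chance gives about 1 such group in 20. For Timp1, TrbE10 replicate 2 had 9.27 and the other arrays 10.40 to 10.59 (gap over range 0.859). For Mmp15, TrbE14 replicate 2 had 9.04 and the others 8.58 to 8.63 (0.882). For Adam10, Control replicate 4 had 9.84 and the others 9.61 to 9.64 (0.857). For Adam17, Control replicate 2 had 5.26 and the others 5.67 to 5.70 (0.923).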

How the results depend on the processing

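Of 792 single-gene values under alternatives that kept all arrays, 749 kept their direction and side of the threshold, 24 lost and 12 gained significance and 7 reversed. With 1 array left out, these numbers were 799, 43, 4 and 18 of 864. Most of these values belong to results that were not called in the report and could not lose a call. Only the 3 members and 4 companions called in TrbE10 hearts and the 1 and 4 called in TrbE14 hearts could. The totals therefore do not measure how stable the calls are. Called members in TrbE10 hearts, 3 in the report, numbered 1 without a filter and 5 with sex as a covariate. In TrbE14 hearts, where 1 was called, they numbered 2 with sex and 4 by SAM (Adam23, Adamts2, Mmp23 and Timp1). Called companion genes, 4 in each mutant, numbered 1 in TrbE10 hearts with 2 groups fitted and 7 with sex, and in TrbE14 hearts 2 with scaling to the 75th percentile and 1 with the stricter rule for sex. With 1 array left out, between 1 and 4 members were called for TrbE10 and 1 or 2 for TrbE14, and between 0 and 8 companions for TrbE10 and 1 to 4 for TrbE14, and both were 0 between the mutants by limma. The cause of these differences was not tested.

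With the replicate number as a block, called members numbered 2 in TrbE10 hearts (Adam23 and Timp1), 0 in TrbE14 hearts, where Adam23 had an adjusted p of 0.0505, and 0 between the mutants, and called companions 2, 2 and 0. Deviations of same-numbered arrays from their group means correlated between -0.24 and 0.08 for mutants and Control, so the numbers were not taken as pairs. Between the mutants the correlations ran from -0.01 to 0.48, and 6 of 12 arrays correlated best with their own number.

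Reversed values were small. They were Timp2 in TrbE10 hearts with scaling to the 75th percentile (-0.015), Adam10 in TrbE10 hearts with sex (0.027), Adamts5 in TrbE14 hearts with averaged probes (-0.13) and with the stricter rule for sex (-0.14) and, between the mutants, Bgn (-0.025) and Timp1 (-0.029) with that rule and Timp2 with averaged probes (0.011). With 1 array left out, TrbE10 changes ranged from -0.059 to 0.047 for Adam10, -0.20 to 0.012 for Adam17 and -0.14 to 0.018 for Mmp2, and TrbE14 changes from -0.011 to 0.21 for Adamts5 and -0.17 to 0.99 for Notch1. Differences between the mutants ranged from -0.00069 to 0.13 for Adam10, -0.55 to 0.10 for Adamts1, -0.060 to 0.35 for Bgn, -0.087 to 0.043 for Timp2 and -0.57 to 0.24 for Timp3. Signal over background limits the set, since 45 of 83 members were not tested.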
